A study of Mus musculus with 6 samples.

Results

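Glycolysis, gluconeogenesis and the response to low oxygen were described through 32 genes, chosen by name and read from the deposited table of normalized expression. All 32 were found among the 23337 genes of that table. The cells were spleen endothelial cells, labelled as blood endothelial cells and sorted as CD31+ CD45- cells after collagenase digestion of the organ. The groups were Stab1-/- mice (KO, 3 libraries) and wild type mice (WT, 3 libraries), all of strain C57BL/6. Stab1 encodes stabilin-1, or Clever-1, a scavenger receptor of sinusoidal endothelium and some macrophages. The labels give no age, do not say how the Stab1 allele was made or which cells lack it, and do not tie libraries to separate animals. The p-values therefore measure only the spread between these libraries, which may be technical.

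Glycolysis splits glucose into pyruvate and is the main source of ATP in many endothelial cells, even where oxygen is plentiful. Gluconeogenesis runs the same path backwards and needs its own enzymes at the steps that glycolysis cannot reverse, among them fructose bisphosphatase and phosphoenolpyruvate carboxykinase. When oxygen falls, prolyl hydroxylases stop marking the alpha subunits of hypoxia-inducible factor (HIF) for destruction by the VHL protein, and HIF then raises the transcription of glucose transporters, glycolytic enzymes and other genes.

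Values are RPKM, reads per kilobase of gene scaled to the size of the library, and the recovered depth was 40274424 to 51498038 reads counted to genes per library. Stab1 had 2.32, 2.62 and 2.49 RPKM in KO libraries, against 21.6, 43.6 and 31.4 RPKM in WT libraries. The KO values were all below the WT values, as the labels say. The 12 endothelial marker genes were all expressed, and their summed level was 3896 to 4439 RPKM in KO libraries and 3348 to 3980 RPKM in WT libraries. None of the 12 passed the test, and their median log2 fold change was 0.21. Ptprc, which encodes the CD45 excluded by the sort, was at 0.0259 to 0.0923 RPKM in KO libraries and 0.0618 to 0.110 RPKM in WT libraries.

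Promoter sequences are shown for 3 genes, Fbp1, the member that passed the test, and Slc2a1 and Slc16a3, transporters of glucose and lactate that are known targets of HIF. Each run holds the 250 bases before and the 50 bases after a RefSeq start site on GRCm38.p6, read 5′ to 3′ on the gene's strand. Capitals mark the core of the HIF binding motif, searched as ACGTG and GCGTG on both strands, with overlapping matches counted separately.
Fbp1 (chr13:62888233-62888532, minus strand): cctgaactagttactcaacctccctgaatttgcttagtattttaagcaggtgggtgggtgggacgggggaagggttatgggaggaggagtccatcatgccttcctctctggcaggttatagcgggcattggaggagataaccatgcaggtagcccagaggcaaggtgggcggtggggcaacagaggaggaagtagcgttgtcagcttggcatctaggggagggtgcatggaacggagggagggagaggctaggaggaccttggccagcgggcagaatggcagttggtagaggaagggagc
Slc2a1 (chr4:119108495-119108794, plus strand): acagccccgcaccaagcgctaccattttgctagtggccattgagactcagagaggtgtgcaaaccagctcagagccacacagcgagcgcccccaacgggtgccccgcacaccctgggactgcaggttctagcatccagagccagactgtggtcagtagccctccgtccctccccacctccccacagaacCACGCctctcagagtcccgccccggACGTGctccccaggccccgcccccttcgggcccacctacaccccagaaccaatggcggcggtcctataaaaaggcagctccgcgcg
Slc16a3 (chr11:120948817-120949116, plus strand): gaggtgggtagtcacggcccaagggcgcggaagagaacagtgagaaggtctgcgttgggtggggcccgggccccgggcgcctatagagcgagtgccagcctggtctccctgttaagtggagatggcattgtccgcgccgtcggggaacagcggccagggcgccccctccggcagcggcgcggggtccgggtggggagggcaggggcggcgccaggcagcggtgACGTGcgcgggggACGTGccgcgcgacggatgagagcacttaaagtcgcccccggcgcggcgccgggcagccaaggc
The Fbp1 window held 0 matches, and the Slc2a1 and Slc16a3 windows held 2 each. RefSeq gave a promoter for 30 of the 32 genes, and 25 of these (83.3%) held a match in at least 1 of their promoters. For comparison by gene, a match stood in at least 1 promoter of 68.7% of the 7930 tested genes that have one. Counted by promoter, a match stood in 78.6% of the members' 42 promoters and in 43.8% of the 32851 promoters in the table. A match is a string of letters and not a measured binding site.

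The members covered a wide range of levels. Aldoa, the main aldolase of most tissues, was the highest at 399.9 ± 21.8 RPKM in KO libraries and 336.3 ± 10.8 RPKM in WT libraries (SD, n = 3 each). Ndrg1, a stress-responsive gene induced by hypoxia, was next, followed by the lactate dehydrogenase gene Ldha, the triose phosphate isomerase gene Tpi1 and the hexokinase gene Hk1. At the other end, Hk2, Eno1, Eno2, Egln3 and Fbp2 did not reach 1 RPKM in 3 libraries and were not tested.

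**Figure D1:**
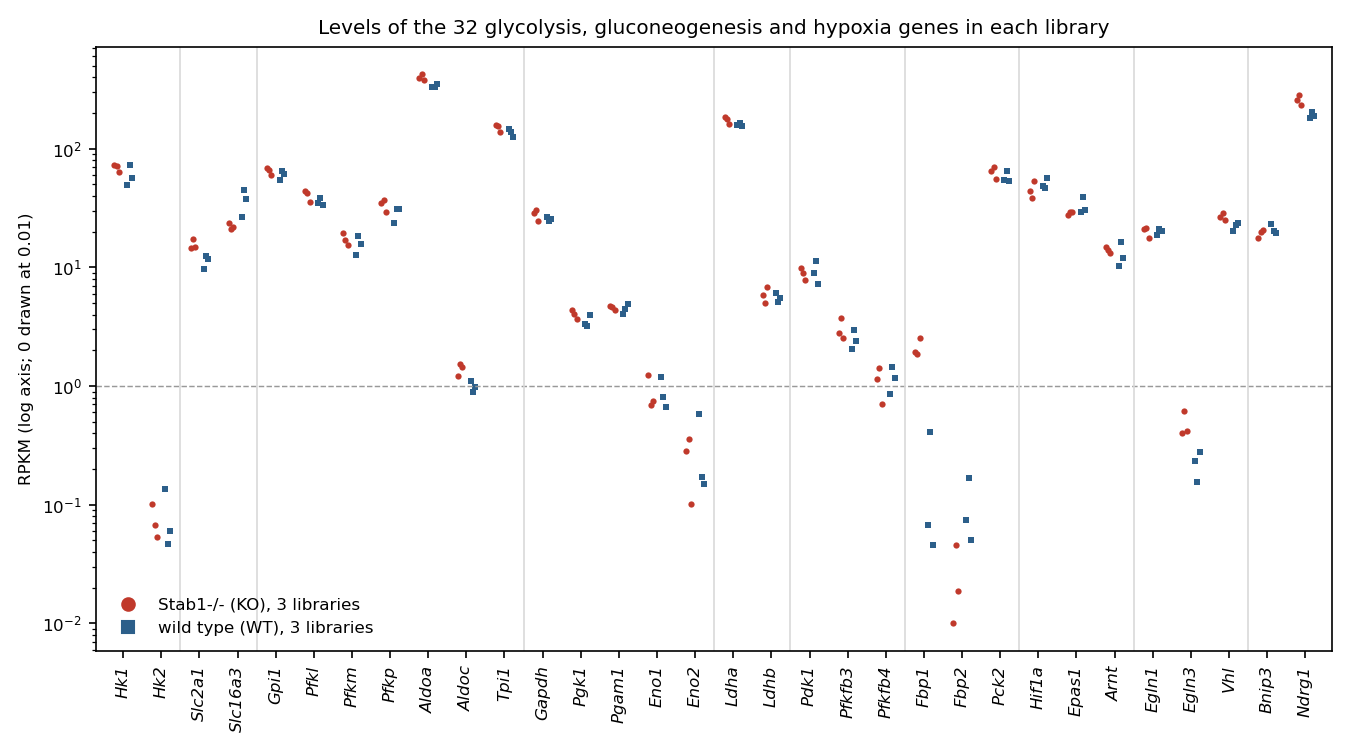
RPKM (log axis) of the 32 genes in the 3 KO libraries (circles) and the 3 WT libraries (squares), ordered by role, with a dashed line at 1 RPKM. Aldoa is highest at 399.9 RPKM (KO mean) and 336.3 RPKM (WT mean), and Fbp1 is the tested gene whose KO and WT values lie farthest apart.

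Levels of several enzymes should be read with care. Much of their transcript also occurs in other annotated genes, mostly pseudogenes. Of the 50-base windows along the longest transcript, 82.5% of those of Gapdh, the glyceraldehyde phosphate dehydrogenase gene, also stood in other genes, 213 of them pseudogenes. The share was 72.2% for the enolase gene Eno1, 68.0% for the phosphoglycerate kinase gene Pgk1 and 41.5% for the phosphoglycerate mutase gene Pgam1. For Eno1, 70.5% of the windows stood in Eno1b, annotated as protein-coding. Among the tested genes with a transcript, 421 of 10108 (4.17%) shared at least 50% of their windows. Gapdh averaged 27.9 ± 3.02 RPKM in KO libraries and 25.6 ± 0.899 RPKM in WT libraries, far below Aldoa, Ldha and Tpi1, and Pgk1 and Pgam1 stood below 5 RPKM in both groups. Bnip3, the mitophagy receptor gene, shared 62.4% and averaged 20.2 RPKM over the 6 libraries. Whether shared sequence bears on any of these levels was not tested. Fbp1, Fbp2 and Slc16a3 shared no window with another gene.

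**Figure D2:**
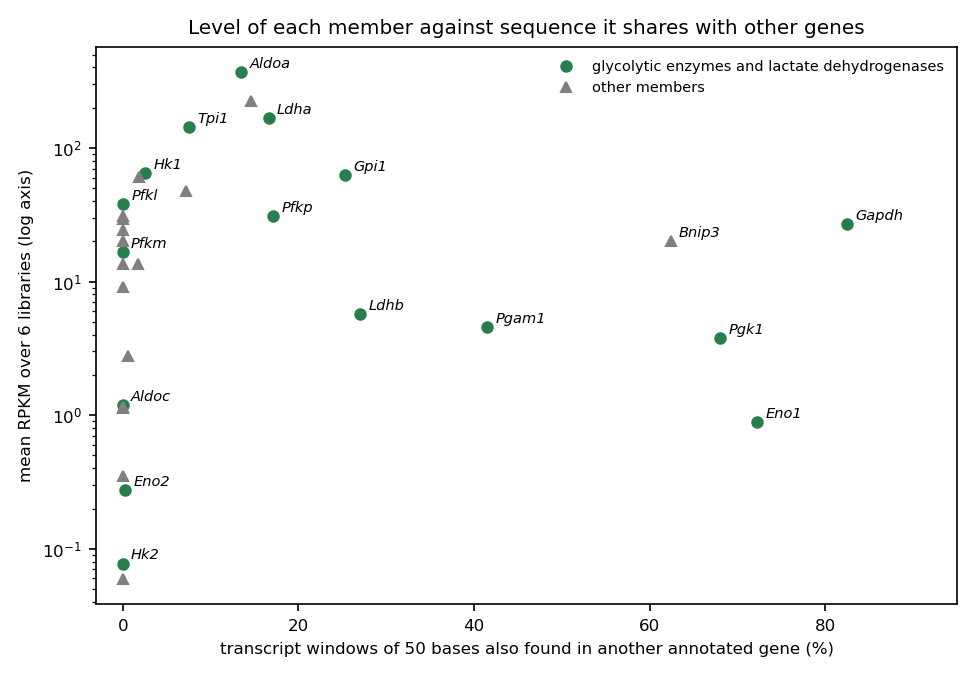
Mean RPKM over the 6 libraries (log axis) against the percentage of 50-base transcript windows also found in another annotated gene, for glycolytic enzymes with lactate dehydrogenases (circles) and the other members (triangles). Gapdh (82.5%), Eno1 (72.2%) and Pgk1 (68.0%) lie far to the right, as does Bnip3 (62.4%), and Gapdh lies in the middle of the range of glycolytic levels.

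Of the 27 members tested, 1 passed the test between KO and WT, Fbp1, which was higher in KO, and none was lower. This is 3.70% of the members tested, beside 1.94% of all 11035 genes tested, of which 0.671% were higher and 1.27% lower. The members were chosen with earlier results of these data known, so this is not a test of the set. Without Fbp1, 0 of 26 members passed in limma, and voom on reads recovered from the RPKM values also called none of them. Of these 26, 4 had an unadjusted limma p under 0.05, beside 15.7% of all genes tested. The median log2 fold change of the 27 was 0.15, beside 0.03 over all genes, and 21 were positive and 6 negative. KO and WT values did not overlap for 7 of the 27 (25.9%), beside 20.3% of all genes tested. The members' departures from their own means differed between libraries of 1 genotype. In KO 2 and KO 3 the median departure was 0.12 and 0.11 on the log2 scale, but it was -0.05 in KO 4, and in WT libraries it was -0.15 in WT 1, 0.00 in WT 3 and -0.06 in WT 4. The positive median therefore did not hold in every KO library, since KO 4 lay between WT 3 and WT 4.

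**Figure D3:**
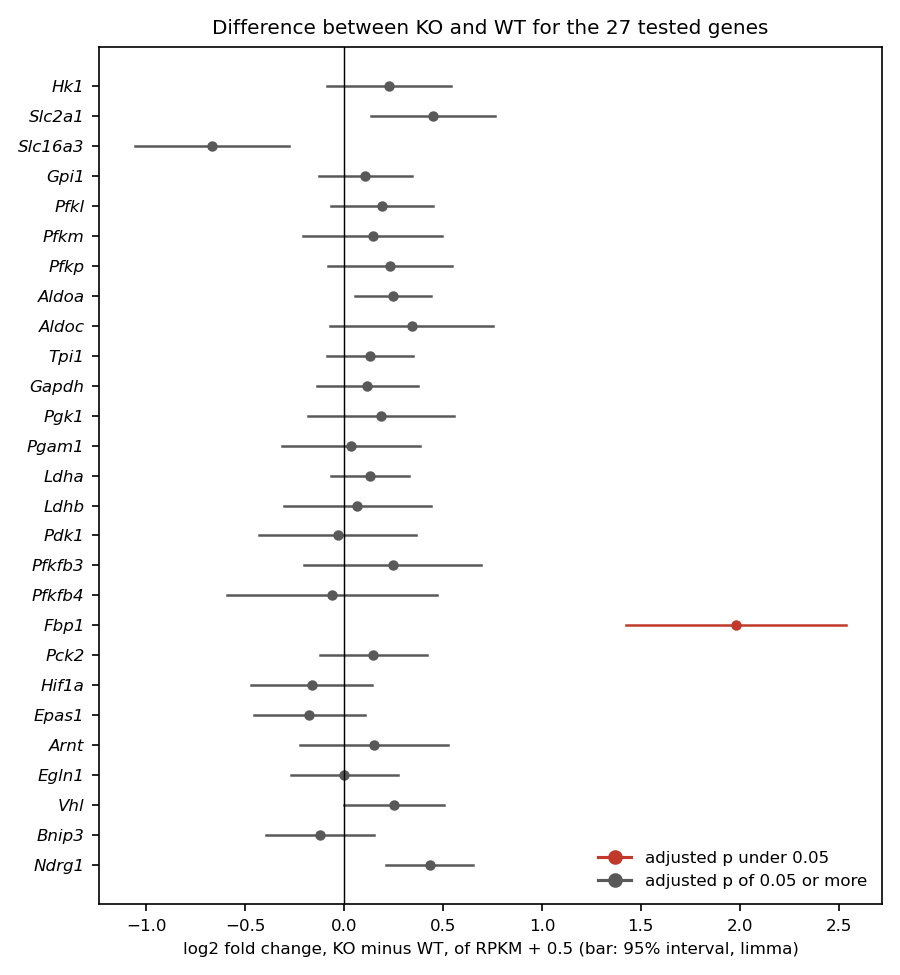
Log2 fold change (KO minus WT, of RPKM + 0.5) with its 95% interval from limma for the 27 tested genes, ordered by role. Fbp1 stands at 1.98, and the other 26 lie between -0.67 and 0.45.

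Of the 3 gluconeogenesis members, Fbp1 passed, Pck2 did not and Fbp2 was below the filter. Fbp1 encodes the liver and kidney type of fructose bisphosphatase, which opposes phosphofructokinase. It had 1.92, 1.85 and 2.56 RPKM in KO libraries, against 0.067, 0.414 and 0.046 RPKM in WT libraries. These values stood on 137, 135 and 150 reads in KO libraries and on 4, 30 and 3 reads in WT libraries. Every KO library lay above every WT library, and WT 3 lay above the other two WT libraries. Fbp1 rose in KO by a log2 fold change of 1.98 ± 0.25 (SE, limma, adjusted p = 0.00479), and the mean level in KO was 12.03 times that in WT. The log2 scale with its added 0.5 RPKM understates the change of so low a gene, and the authors' deposited table lists a log2 fold change of 4.08 with an adjusted p of 0.0203. No WT library reached 1 RPKM, so Fbp1 entered the test through its KO libraries alone, and a filter at 5 RPKM leaves it out.

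The level of Fbp1 was low in both groups, and 2.11 RPKM in KO libraries was far under that of the phosphofructokinase genes. The muscle type, Fbp2, lies next to it on chromosome 13 and was at 0, 0.046 and 0.019 RPKM in KO libraries and 0.074, 0.168 and 0.051 RPKM in WT libraries, on at most 11 reads. The nearest tested gene on one side, Zfp935 (chr13:62453016-62466852), fell in KO, with 1.55 ± 0.455 RPKM in KO libraries and 3.79 ± 0.603 RPKM in WT libraries (log2 fold change -1.08, limma adjusted p = 0.0329). Zfp935 passed in 8 of 18 alternative settings, and its adjusted p was 0.120 after correction for GC content and transcript length, 0.0582 after quantile normalization and 0.0208 to 0.153 with 1 library left out, where it passed without KO 4 alone. On the other side, 2010111I01Rik (chr13:62964893-63326096) had 11.2 ± 0.795 RPKM in KO libraries and 14.3 ± 0.201 RPKM in WT libraries and did not pass (limma adjusted p = 0.210). Fbp1 itself lies at chr13:62864753-62888298. Of the tested genes on chromosome 13, 15 of 369 (4.07%) passed, beside 1.94% of all genes tested. Markers of macrophages, which can express Fbp1, summed to 258.8 to 356 RPKM in KO libraries and 398.9 to 452 RPKM in WT libraries. Of the 15 markers, 6 were tested and 1, Fcer1g, fell. Without Fcer1g the sums overlapped, at 203.3 to 241.4 RPKM in KO libraries and 183.6 to 225.6 RPKM in WT libraries. Vcam1 made up most of each of these sums, at 174.2 to 211.7 RPKM in KO libraries and 155.4 to 183.4 RPKM in WT libraries. They therefore say little about the rest of the list. The median log2 fold change of the 6 tested markers was -0.40. Lyz2 averaged 7.21 RPKM in KO libraries and 13.6 RPKM in WT libraries, and Tyrobp 2.41 RPKM in KO libraries and 3.59 RPKM in WT libraries. Spic averaged 1.57 RPKM in KO libraries and 2.11 RPKM in WT libraries, and Hmox1 14.5 RPKM in KO libraries and 14.2 RPKM in WT libraries. C1qc, below the filter, averaged 0.661 RPKM in KO libraries and 0.465 RPKM in WT libraries. The defining macrophage genes Csf1r and Emr1 averaged at most 0.0562 RPKM in either group. The part of these cells in the Fbp1 difference was not tested. In bulk samples, fewer cells of a type and less RNA per cell cannot be told apart. Pck2, the mitochondrial phosphoenolpyruvate carboxykinase, had 65.4, 70.7 and 55.5 RPKM in KO libraries, against 54.8, 64.5 and 53.2 RPKM in WT libraries. The groups overlapped and the difference did not pass (log2 fold change 0.15, limma adjusted p = 0.570).

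Neither transporter gene passed, and their log2 fold changes had opposite signs. Slc16a3, which exports lactate, had 23.7, 21.2 and 21.9 RPKM in KO libraries, against 26.5, 45.2 and 37.7 RPKM in WT libraries. The groups did not overlap, the WT libraries being more spread than the KO libraries (log2 fold change -0.67, 95% interval -1.06 to -0.28, limma adjusted p = 0.103). Slc16a3 passed in 5 of the alternative settings, with adjusted p values of 0.00130 to 0.0241. Of the 13 tested markers of megakaryocytes and platelets 1 fell, Pf4, which had 18.4, 15.4 and 19.2 RPKM in KO libraries, against 52.3, 88.4 and 36.3 RPKM in WT libraries, and the median log2 fold change was -0.84. The list summed to 659.7 to 692.6 RPKM in KO libraries and 601.8 to 692.2 RPKM in WT libraries, and without Gng11, its most abundant gene, to 70.4 to 96.7 RPKM in KO libraries and 109.8 to 301.7 RPKM in WT libraries. WT 3 was the highest library both for Pf4 and for Slc16a3. The other WT libraries stood in opposite order for these genes. The library with 26.5 RPKM of Slc16a3 had 52.3 RPKM of Pf4, and that with 37.7 RPKM of Slc16a3 had 36.3 RPKM of Pf4. Cxcl13, 1 of 8 tested reticular markers, and Rgs5, 1 of 9 tested pericyte markers, also fell. The part of these cells in the Slc16a3 difference was not tested. Slc2a1, which imports glucose, had 14.7, 17.2 and 14.8 RPKM in KO libraries, against 9.72, 12.4 and 11.8 RPKM in WT libraries. Its groups did not overlap (log2 fold change 0.45, 95% interval 0.14 to 0.76, limma adjusted p = 0.165).

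The 16 genes of glycolysis and lactate formation were 13 tested and 0 called, and all 13 log2 fold changes were positive, between 0.04 and 0.34 with a median of 0.15, beside 54.3% positive over all genes. After correction for GC content and transcript length 12 were positive, as with library quality weights and with KO 4 or WT 1 left out, and 10 were in the 4 libraries numbered 3 and 4. Hk1, which phosphorylates glucose, had 73.3, 71.9 and 63.3 RPKM in KO libraries, against 49.8, 73.0 and 56.9 RPKM in WT libraries. WT 3 lay within the range of the KO libraries (log2 fold change 0.23, limma adjusted p = 0.450). Hk2, the insulin-responsive hexokinase and a HIF target, was near 0, with 12 to 31 reads per library.

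In the upper steps, Gpi1 interconverts the first sugar phosphates, Pfkl, Pfkm and Pfkp are the liver, muscle and platelet types of phosphofructokinase, and Aldoa, Aldoc and Tpi1 make and interconvert the trioses. Aldoa had 397.9, 422.7 and 379.3 RPKM in KO libraries, against 329.4, 330.9 and 348.8 RPKM in WT libraries. The groups did not overlap (log2 fold change 0.25, 95% interval 0.06 to 0.44, limma adjusted p = 0.208). Tpi1 had 158.2, 155.2 and 138.5 RPKM in KO libraries, against 147.0, 138.8 and 126.8 RPKM in WT libraries, and these overlapped. Aldoc, the brain-type aldolase, was low and did not overlap, with 1.21, 1.53 and 1.44 RPKM in KO libraries, against 1.10, 0.883 and 0.990 RPKM in WT libraries (log2 fold change 0.34, limma adjusted p = 0.398). Gpi1 had 68.4, 66.0 and 59.5 RPKM in KO libraries, against 54.2, 65.2 and 60.8 RPKM in WT libraries, with overlap. The log2 fold changes of Gpi1, Pfkl, Pfkm and Pfkp lay between 0.11 and 0.23.

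In the lower steps, Gapdh had 29.0, 30.2 and 24.5 RPKM in KO libraries, against 26.5, 24.7 and 25.6 RPKM in WT libraries. KO 4 was the lowest of all 6 and the groups overlapped (log2 fold change 0.12, limma adjusted p = 0.627). Pgk1 averaged 4.05 ± 0.347 RPKM in KO libraries and 3.50 ± 0.412 RPKM in WT libraries, and Pgam1 4.59 ± 0.207 RPKM in KO libraries and 4.48 ± 0.458 RPKM in WT libraries. Neither passed. The ubiquitous enolase gene Eno1 had 1.25, 0.687 and 0.745 RPKM in KO libraries, against 1.19, 0.802 and 0.666 RPKM in WT libraries, and the neuronal form Eno2 averaged 0.248 RPKM in KO libraries and 0.302 RPKM in WT libraries. Ldha, which turns pyruvate into lactate, had 184.4, 179.6 and 162.6 RPKM in KO libraries, against 158.6, 165.4 and 155.9 RPKM in WT libraries, and WT 3 lay above KO 4 (log2 fold change 0.13, limma adjusted p = 0.485). Ldhb, the heart type, averaged 5.90 ± 0.948 RPKM in KO libraries and 5.58 ± 0.475 RPKM in WT libraries.

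Genes that set the direction of flux did not pass. Pfkfb3 and Pfkfb4 make and remove the activator of phosphofructokinase, and Pdk1 blocks the entry of pyruvate into the mitochondrial cycle. Pfkfb3 averaged 3.04 ± 0.631 RPKM in KO libraries and 2.47 ± 0.447 RPKM in WT libraries (log2 fold change 0.25, limma adjusted p = 0.567). Pfkfb4 averaged 1.10 ± 0.362 RPKM in KO libraries and 1.15 ± 0.290 RPKM in WT libraries, and Pdk1 8.88 ± 1.06 RPKM in KO libraries and 9.19 ± 2.01 RPKM in WT libraries.

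Among the HIF subunits, Hif1a had 44.1, 38.1 and 53.3 RPKM in KO libraries, against 48.3, 46.4 and 56.4 RPKM in WT libraries (log2 fold change -0.16, 95% interval -0.47 to 0.14, limma adjusted p = 0.574). After correction for GC content and transcript length its log2 fold change was 0.13. Epas1, the HIF alpha subunit prominent in endothelium, had 27.9, 29.4 and 29.2 RPKM in KO libraries, against 29.1, 38.9 and 30.6 RPKM in WT libraries, and WT 3 stood above the rest (log2 fold change -0.18, 95% interval -0.46 to 0.11, limma adjusted p = 0.518). Arnt, the constitutive beta subunit, had 14.9, 14.1 and 13.3 RPKM in KO libraries, against 10.3, 16.3 and 12.1 RPKM in WT libraries. All 3 subunits overlapped between the groups. Intervals of this width leave room for changes of either sign.

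Of the genes that degrade HIF, the prolyl hydroxylase gene Egln1 averaged 20.04 ± 2.002 RPKM in KO libraries and 19.97 ± 1.239 RPKM in WT libraries. Vhl, which recognises the hydroxylated alpha subunit, had 26.4, 28.6 and 24.9 RPKM in KO libraries, against 20.3, 22.7 and 23.8 RPKM in WT libraries. The Vhl values did not overlap (log2 fold change 0.25, limma adjusted p = 0.319). Egln3, a hydroxylase that HIF itself induces, was below the filter, at 0.406, 0.617 and 0.421 RPKM in KO libraries and 0.233, 0.155 and 0.278 RPKM in WT libraries, with no overlap and, with no filter on low values, a limma adjusted p of 0.234. Of the HIF targets, Ndrg1 had 255.5, 285.1 and 234.9 RPKM in KO libraries, against 182.2, 203.2 and 187.6 RPKM in WT libraries. Its groups did not overlap, and it was the tested member closest to passing after Fbp1 (log2 fold change 0.43, 95% interval 0.21 to 0.65, limma adjusted p = 0.0631). Bnip3, a mitophagy receptor, averaged 19.3 ± 1.53 RPKM in KO libraries and 21.1 ± 2.05 RPKM in WT libraries.

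**Figure D4:**
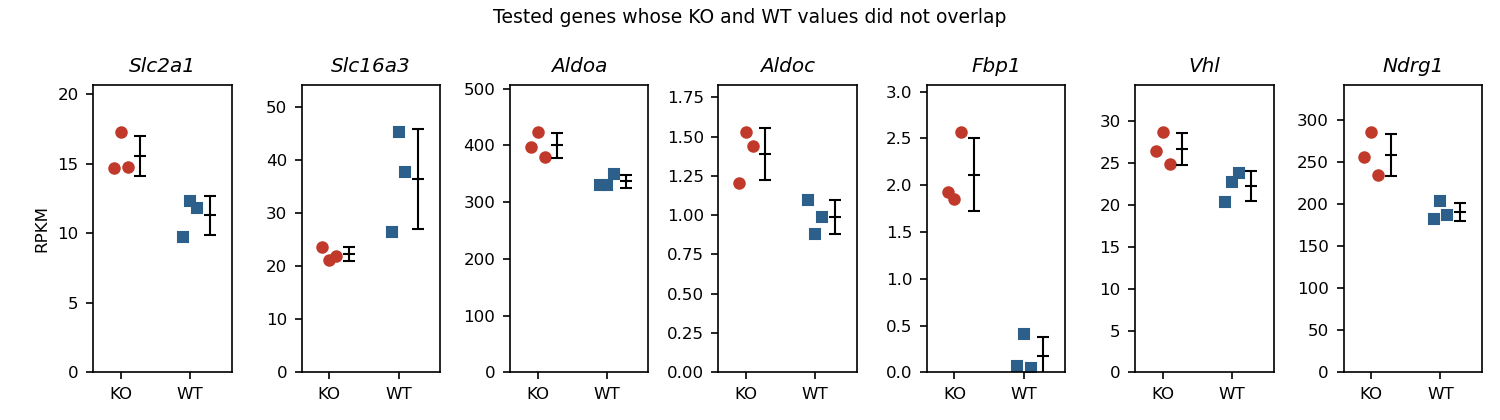
RPKM in each KO library (circles) and WT library (squares), with the mean and SD of each group in black, for the 7 tested genes whose groups did not overlap. Slc16a3 is the one of the 7 that was lower in KO, and Fbp1 alone passed the test.

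Within families, the share of each isozyme in the summed RPKM of its family was compared by an exact permutation test over the 20 assignments of libraries, whose smallest two-sided p is 0.1. Of 25 shares tested, 4 reached that p, and the smallest adjusted p was 0.625. Shares within a family depend on each other and are not separate results. Slc16a3 made up 5.41% to 6.51% of the lactate transporters in KO libraries, against 7.70% to 10.9% in WT libraries. The rest was almost all Slc16a1, at 94.1 ± 0.625% in KO libraries and 90.3 ± 1.68% in WT libraries. Pfkfb3 made up 52.0 ± 3.36% of its family in KO libraries and 45.3 ± 1.82% in WT libraries, and Hk1 99.5 ± 0.116% of the hexokinases in KO libraries and 99.1 ± 0.367% in WT libraries. The phosphofructokinases were mixed, with Pfkl at 44.5% in KO libraries and 44.7% in WT libraries and Pfkp at 36.6% in KO libraries and 35.7% in WT libraries. Hif1a made up 60.8 ± 4.11% of the HIF alpha subunits in KO libraries and 60.5 ± 5.44% in WT libraries, and Epas1 the rest. Of the glucose transporters, Slc2a1 made up 32.6 ± 2.35% in KO libraries and 26.8 ± 3.56% in WT libraries (exact p = 0.2).

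**Figure D5:**
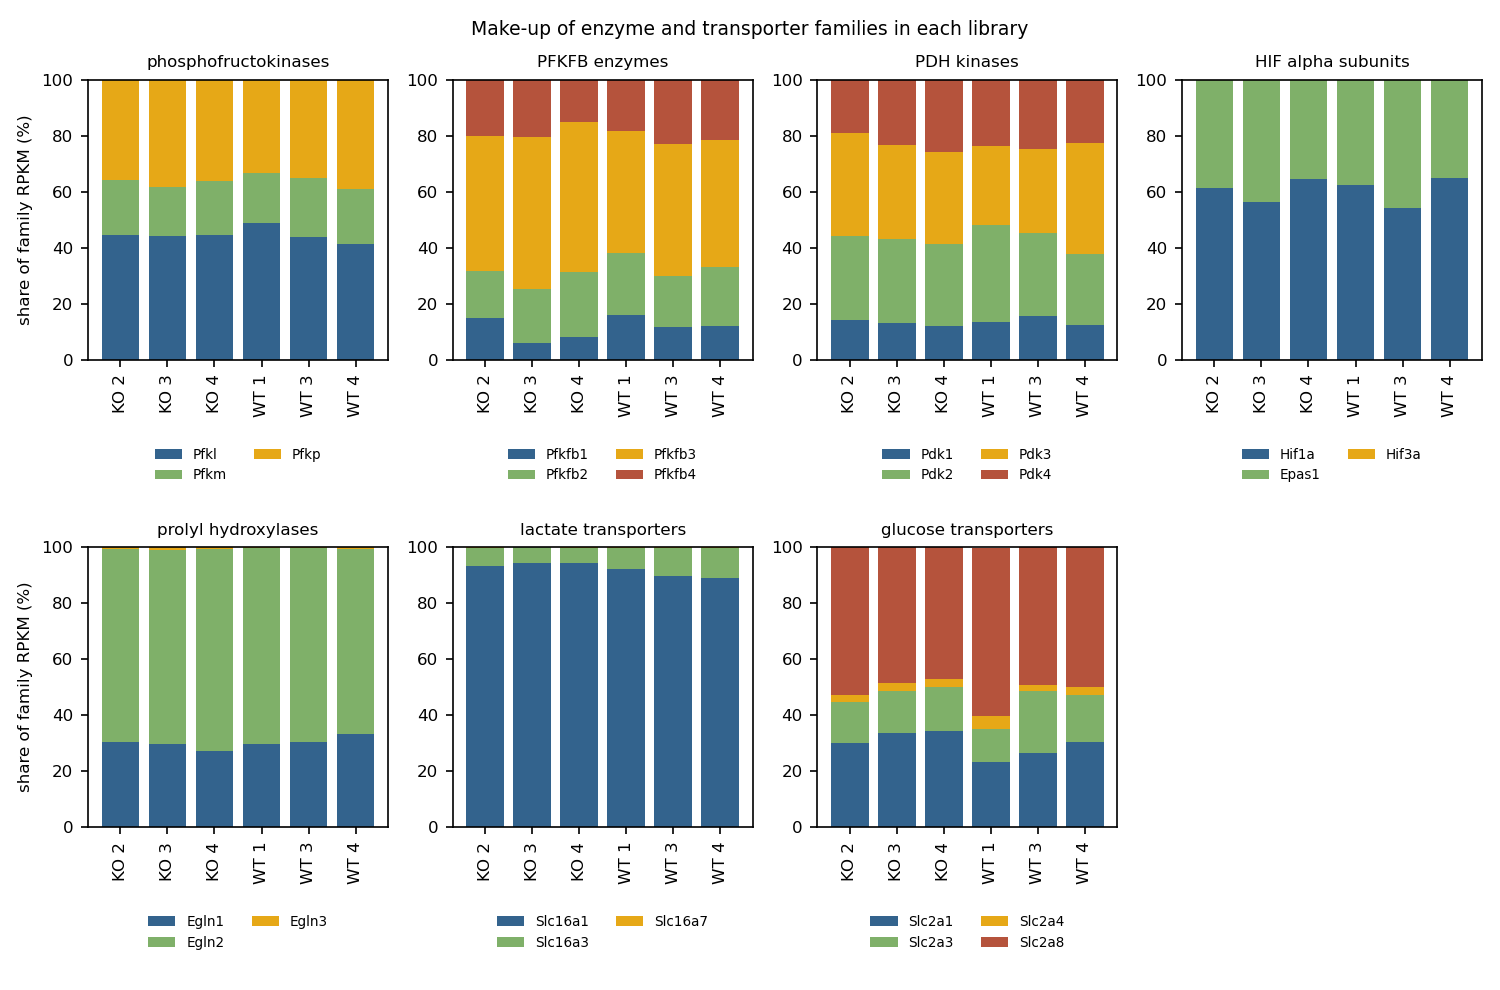
Share of each isozyme in the summed RPKM of its family (%), one stacked bar per library, the 3 KO libraries left of the 3 WT libraries. The Slc16a3 share of the lactate transporters is 5.41% to 6.51% in KO libraries and 7.70% to 10.9% in WT libraries.

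The wider pathway was read from 96 other genes in 6 lists, of which 75 were tested, 3 rose and 1 fell, with a median log2 fold change of 0.00. Over all 11035 genes tested, 1.94% passed, 0.671% being higher and 1.27% lower. The lists were written with earlier results of these data known, so setting their counts beside these shares is not a test of the pathway. Among 14 tested genes of the list of other glycolytic steps 1 rose. It is listed as Pgm1, but its gene ID, 66681, is named Pgm2 in RefSeq, and it encodes a member of the phosphoglucomutase family. Its place in that list rests on the listed name, so it is not counted here as a gene of a glycolytic step. It was the only gene of that list to pass. It had 55.5, 53.3 and 56.0 RPKM in KO libraries, against 30.5, 29.6 and 30.7 RPKM in WT libraries. The groups lay far apart with little spread (log2 fold change 0.85 ± 0.09, SE, limma adjusted p = 0.00178). The gene listed as Pgm2, with gene ID 72157, did not pass (log2 fold change 0.16, limma adjusted p = 0.608). Among 25 other hypoxia targets 2 rose. Zfp395, a zinc finger gene, averaged 8.81 ± 0.702 RPKM in KO libraries and 3.77 ± 0.632 RPKM in WT libraries (log2 fold change 1.13, limma adjusted p = 0.00950). Zfp395 missed the threshold when low genes were kept (adjusted p = 0.0509) and without KO 3 (adjusted p = 0.0621). Stc2, a secreted stanniocalcin, averaged 4.60 ± 0.171 RPKM in KO libraries and 2.49 ± 0.186 RPKM in WT libraries (log2 fold change 0.77, limma adjusted p = 0.0398). The other targets were mixed, 10 of the 25 log2 fold changes being positive and 15 negative. Vegfa, the endothelial growth factor gene, averaged 15.5 RPKM in KO libraries and 20.7 RPKM in WT libraries, and the mitophagy receptor gene Bnip3l 16.2 ± 2.35 RPKM in KO libraries and 23.5 ± 2.71 RPKM in WT libraries, and neither passed.

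Of 12 tested genes of pyruvate dehydrogenase and pyruvate entry, 1 fell. Pdhb, a subunit of the enzyme that carries pyruvate into the mitochondrial cycle, averaged 50.3 ± 2.23 RPKM in KO libraries and 68.5 ± 0.980 RPKM in WT libraries (log2 fold change -0.44, limma adjusted p = 0.0364). Without any 1 library neither Pdhb nor Stc2 passed, with adjusted p values of 0.0560 to 0.196 for Pdhb and 0.0526 to 0.190 for Stc2. None of the 8 tested genes of the pentose phosphate pathway passed. Tkt, the transketolase gene of that pathway, had 50.7, 53.1 and 46.2 RPKM in KO libraries, against 36.7, 39.9 and 38.2 RPKM in WT libraries (log2 fold change 0.38, limma adjusted p = 0.101). None of the 7 other tested gluconeogenesis genes and none of the 9 other tested HIF pathway genes passed. The pyruvate kinase gene Pkm averaged 316.6 ± 21.7 RPKM in KO libraries and 266.7 ± 13.9 RPKM in WT libraries and did not pass (limma adjusted p = 0.238).

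Genes that respond to tissue dissociation had a summed level of 7885 to 9198 RPKM in KO libraries and 7187 to 7997 RPKM in WT libraries, which overlapped, and their median log2 fold change was 0.19. Of 28 tested, 1 rose, Hspa8, a heat shock chaperone gene. Their part in the members' differences was not tested.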

How the data were processed

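Spleen endothelial libraries were compared by genotype. Tools named in the submitters' processing notes are edgeR, limma, Subread and STAR 2.5.2b, with build mm10; no settings are given. The authors deposited normalized values, used here as RPKM. The headers of that table do not name the unit, but for all 17683 genes above 0 the values were whole multiples of 1 read's worth (100.00%, tolerance 0.001), and that worth fell with transcript length (Spearman rho = -0.880 across 10108 genes, which are not independent). The authors deposited also log2 fold changes, signed linear folds and p-values, per the file headers. Column numbers do not match the labels' replicate numbers, so columns were assigned to genotype only and keep their own number.

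The 11035 genes that reached 1 RPKM in 3 or more libraries were tested. The genotype effect on log2(RPKM + 0.5) was estimated with limma 3.58.1 (R 4.3.3), using a variance trend on intensity and Benjamini-Hochberg adjustment over all tested genes at a threshold of 0.05. RPKM are not counts, so no count test was the main test; voom on the recovered reads was an alternative. The fit was tested on simulated data, where it recovered 38% of 1.5-fold, 68.1% of 2-fold, 90% of 3-fold and 100% of 4-fold changes. Of its calls there, 2.03% were false. Small changes, such as those of most members, can therefore be missed, and none below 1.5-fold was simulated. Each gene was drawn independently, with no departure shared across a library, so these rates may not hold for the real libraries. At this depth the spread between libraries sets the precision for genes with many reads. For genes on few reads, such as Fbp1 with 3 to 30 reads in WT libraries, the counting of reads also limits it.

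The members, roles and lists were chosen with earlier results of these data known. Values per library are given for members that passed, the 8 highest, the 6 with the largest changes, and Hif1a, Epas1, Arnt, Fbp1, Fbp2 and Slc2a1; those of Gapdh, Eno1 and Egln3, the naming of Vegfa, Pkm and single marker genes, and the marker sums without Fcer1g or Gng11, were chosen after their values were seen. Of the other lists, genes that passed and the 6 of smallest p are named. Coordinates and promoters came from RefSeq (GRCm38), and shared windows from GENCODE M21 transcripts. Python 3.11.15, scipy 1.17.1 and matplotlib 3.10.9 were used. Alternatives were other pseudocounts, filters, scalings and variance models, library quality weights, voom, a replicate block and leaving out each library.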

Additional observations from a re-analysis of the deposited data

How the results depend on the processing

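Fbp1 passed under all 18 alternatives that tested it. Its highest limma adjusted p, 0.0345, came with no filter on low values. The rest kept the 1 RPKM filter, which Fbp1 met through its KO libraries alone, so they are not free of that selection. Over all genes, 214 passed in the main fit, against 77 with no filter on low values, 3653 with library quality weights, 347 with a replicate block on numbers 3 and 4, 91 in the same libraries with no block, and 56 to 418 with 1 library left out (56 without KO 3, 83 without KO 2, 93 without WT 4, 418 without KO 4). With GC and length trends removed, 123 were higher and 118 lower, against 74 and 140. Of the members, 0 passed under the 5 RPKM filter, where Fbp1 was not tested, 3 with GC and length trends removed (Fbp1, Ndrg1, Slc16a3), 11 with quality weights, which rest mostly on KO 2 and WT 4 (weights 3.115 and 4.19), 2 with the block, 2 in the same libraries with no block (Fbp1, Slc16a3 in both), and 1 to 2 with 1 library left out. Ndrg1 also passed without KO 4 and Slc16a3 without WT 1. Of the other pathway genes, 4 passed in the main fit, 1 with no filter, 31 with quality weights, 3 with the block, 2 without it and 1 to 4 with 1 library left out. Of the isozyme shares, 3 did not overlap among isozymes with at least 1 RPKM in 3 libraries, and 4 to 9 did not with 1 library left out (9 without KO 2, 8 without WT 1, 7 without WT 4), against 4 of 25. Groups separate more easily with 1 library fewer, so the counts with 1 library left out cannot be compared with 4 of 25. The members' median log2 fold change ranged from 0.09 to 0.21.

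None of the members that changed sign passed in the main fit or where the sign changed. Log2 fold changes of the opposite sign were, under quantile normalization, 0.036 for Pfkfb4 and -0.010 for Egln1; with GC and length trends removed, -0.001 for Pgam1, 0.029 for Pdk1, 0.126 for Hif1a, -0.121 for Egln1 and 0.143 for Bnip3; with quality weights, -0.038 for Pgam1 and 0.273 for Pdk1; under voom, -0.030 for Egln1; and with the replicate block, as without it in the same libraries, -0.006 for Gpi1, -0.080 for Pfkm, -0.055 for Pgam1, -0.031 for Arnt, -0.083 for Egln1 and 0.018 for Bnip3. With 1 library left out, values ranged from -0.047 to 0.085 for Egln1, -0.043 to 0.170 for Ldhb, -0.178 to 0.121 for Pdk1, -0.209 to 0.127 for Pfkfb4 and -0.032 to 0.101 for Pgam1. The libraries numbered 3 and 4 share only a column number: deviations correlated at 0.193 for both same-numbered pairs and at -0.162 to 0.094 for the others. The cause of these changes was not tested.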
